A study of Mus musculus with 17 samples.

Results

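The DN2 to DN3a step of thymocyte development was followed in 3 Lmo2-transgenic mice, numbered 162, 163 and 166 in the labels. All libraries labelled transgenic, young, and DN2 or DN3a were taken, which gave 6 of the 17 libraries of the series. Each mouse gave 1 library of each stage, so DN3a was compared with DN2 of the same animal. The 3 mice were 2.5 weeks old and of strain C57BL/6; mice 162 and 163 were female and mouse 166 male. Their DN2 libraries bear replicate numbers 1, 2 and 3, and their DN3a libraries numbers 2, 3 and 1, so the number in a title does not join the 2 stages of a mouse. For comparison, 2 wild-type C57BL/6 mice of 2.5 weeks (mouse 1, female, and mouse 2, male) gave both stages in 4 further libraries. The transgenic mice carry an Lmo2 transgene at both stages and the wild-type mice do not. A fit of group means that is named where it changes a result also took in the other 7 libraries of the series, all DN3a: a wild-type mouse of 3 weeks, 3 older wild-type mice (8 to 10 weeks) and 3 older transgenic mice (6 to 10 weeks), C57BL/6 females. Neither the promoter that drives the transgene nor the antibodies used to sort the cells is given in the labels.

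DN2 and DN3a are consecutive stages of thymocytes that lack both CD4 and CD8. Around DN2 an immature cell gives up its myeloid and innate lymphoid options and commits to the T lineage. At DN3a it stops dividing for a time and rearranges the T cell receptor beta locus, whose product then pairs with the pre-T cell receptor alpha chain and the CD3 chains. LMO2 is a LIM-only protein without a DNA-binding domain of its own. It joins basic helix-loop-helix proteins and GATA factors into complexes on DNA and is normally switched off as thymocytes commit. Basic helix-loop-helix dimers bind the E-box, CANNTG.

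Levels are given as CPM, edgeR's library-scaled counts after TMM scaling, always for mice 162, 163 and 166 in that order. A fold change is the log2 ratio of DN3a over DN2 within mice from edgeR's quasi-likelihood fit. The value after ± is a standard error derived as the absolute fold change over the square root of the test's F statistic. A gene is said to rise or fall only where its Benjamini-Hochberg adjusted p lay under 0.05 over the 13215 tested genes. Where a stage had no read, the fold is the smallest that 3 reads over its libraries would allow. Where it had 1 to 3 reads, the ratio of CPM is given with its exact 95% counting interval. Such bounds and intervals cover counting error only.

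Promoter sequences of 6 genes that the results below turn on are shown first, because LMO2 complexes act through E-boxes. Each run is the 250 bases before the RefSeq start site (GRCm38.p6, read 5′ to 3′ on the gene's own strand). Capitals mark every CAGCTG, which is its own reverse complement, and every CAGGTG or its reverse complement CACCTG. Matches of the 2 forms cannot overlap. Other forms of CANNTG were not counted and stand unmarked, such as caagtg in the Cd3e run and catctg in the Rag1 run. The regions are, for Ptcra, chr17:46763713-46763962 on the minus strand, for Cd3d chr9:44981536-44981785 on the plus strand, for Cd3g chr9:44980432-44980681 and for Cd3e chr9:45009612-45009861 on the minus strand. For Rag1 the region is chr2:101649533-101649782 on the minus strand and for Mpo chr11:87793534-87793783 on the plus strand. The first 5 rose in the step and Mpo fell.
Ptcra: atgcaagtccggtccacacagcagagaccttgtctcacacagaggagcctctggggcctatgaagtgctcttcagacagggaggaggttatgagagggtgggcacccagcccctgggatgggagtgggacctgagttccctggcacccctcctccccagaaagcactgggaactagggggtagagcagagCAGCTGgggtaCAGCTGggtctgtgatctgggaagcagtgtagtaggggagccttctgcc
Cd3d: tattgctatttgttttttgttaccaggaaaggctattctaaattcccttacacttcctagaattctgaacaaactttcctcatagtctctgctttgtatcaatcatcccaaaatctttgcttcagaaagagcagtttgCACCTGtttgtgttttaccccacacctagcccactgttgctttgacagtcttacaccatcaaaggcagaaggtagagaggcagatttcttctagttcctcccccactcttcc
Cd3g: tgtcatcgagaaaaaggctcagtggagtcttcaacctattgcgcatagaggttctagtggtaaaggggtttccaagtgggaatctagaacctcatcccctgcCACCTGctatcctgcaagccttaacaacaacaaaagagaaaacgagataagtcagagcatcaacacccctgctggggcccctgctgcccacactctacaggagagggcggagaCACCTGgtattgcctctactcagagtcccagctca
Cd3e: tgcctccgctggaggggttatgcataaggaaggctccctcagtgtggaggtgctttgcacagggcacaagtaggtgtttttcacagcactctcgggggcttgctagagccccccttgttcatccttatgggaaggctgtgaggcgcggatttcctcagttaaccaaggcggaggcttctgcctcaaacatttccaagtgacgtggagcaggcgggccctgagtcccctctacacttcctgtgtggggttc
Rag1: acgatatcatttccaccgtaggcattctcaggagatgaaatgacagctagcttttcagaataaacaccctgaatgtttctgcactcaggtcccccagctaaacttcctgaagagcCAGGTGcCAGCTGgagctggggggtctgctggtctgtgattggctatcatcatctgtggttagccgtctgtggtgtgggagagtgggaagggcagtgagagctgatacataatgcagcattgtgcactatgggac
Mpo: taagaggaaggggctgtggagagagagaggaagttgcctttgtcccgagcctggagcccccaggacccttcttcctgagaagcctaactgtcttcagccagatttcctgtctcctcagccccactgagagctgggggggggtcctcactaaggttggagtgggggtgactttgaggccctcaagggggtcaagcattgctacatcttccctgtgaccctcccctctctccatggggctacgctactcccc

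The Ptcra window held CAGCTG at 2 places, that of Cd3g held CAGGTG at 2 places, that of Cd3d held 1 CAGGTG, and that of Rag1 held 1 of each. The windows of Cd3e and Mpo held neither. Among all 27025 promoters of the same length in the RefSeq table, 27.4% held at least 1 of the 2 forms, 12.8% CAGCTG and 17.1% CAGGTG. Of genes that rose in the transgenic step, 1111 had a promoter in the table, and 25.9% of these held either form. Of genes that fell, 1342 had one, and 26.2% held either form. Among the 9960 tested genes with a promoter in the table the share was 24.5%, so the shares of genes that rose and fell lay between it and that of all promoters. Of 9 genes of the T cell receptor list that rose and had a promoter, 5 held either form (55.6%), and most of the runs shown come from this list. A match is a run of letters and not a binding site.

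The labels were checked against Lmo2 and the markers that define the stages. Lmo2 (Entrez gene 16909, chromosome 2, 103957903 to 103981878, GRCm38) stood at 154, 107 and 91.9 CPM in DN2 and at 34.2, 39.0 and 30.9 CPM in DN3a. All 6 values were high against wild-type cells, which had 4 reads in DN2 and 8 in DN3a, and the DN3a values lay below all DN2 values. The change was -1.73 ± 0.24 (adjusted p = 6.22e-05), so Lmo2 RNA fell over the step and was still present after it. The counts do not separate the transgene's transcripts from those of the endogenous gene. Kit, the stem cell factor receptor of early thymocytes, stood at 482, 615 and 649 CPM in DN2 and at 131, 100.3 and 126 in DN3a, a change of -2.29 ± 0.20 (adjusted p = 6.23e-07). Cd44, an adhesion receptor lost at the DN2 to DN3 transition, went from 39.1, 50.01 and 55.6 to 3.89, 2.21 and 5.12 CPM, a change of -3.73 ± 0.31 (adjusted p = 4.77e-07). For both genes the stages did not overlap. Il2ra (CD25), present on both stages, stood at 1734, 2072 and 2255 CPM in DN2 and 1860.0, 1879.7 and 2247 in DN3a (-0.01 ± 0.23, adjusted p = 0.975), with overlapping stages. DN3a cells thus had less Kit and Cd44 RNA and a like level of Il2ra RNA.

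**Figure D1:**
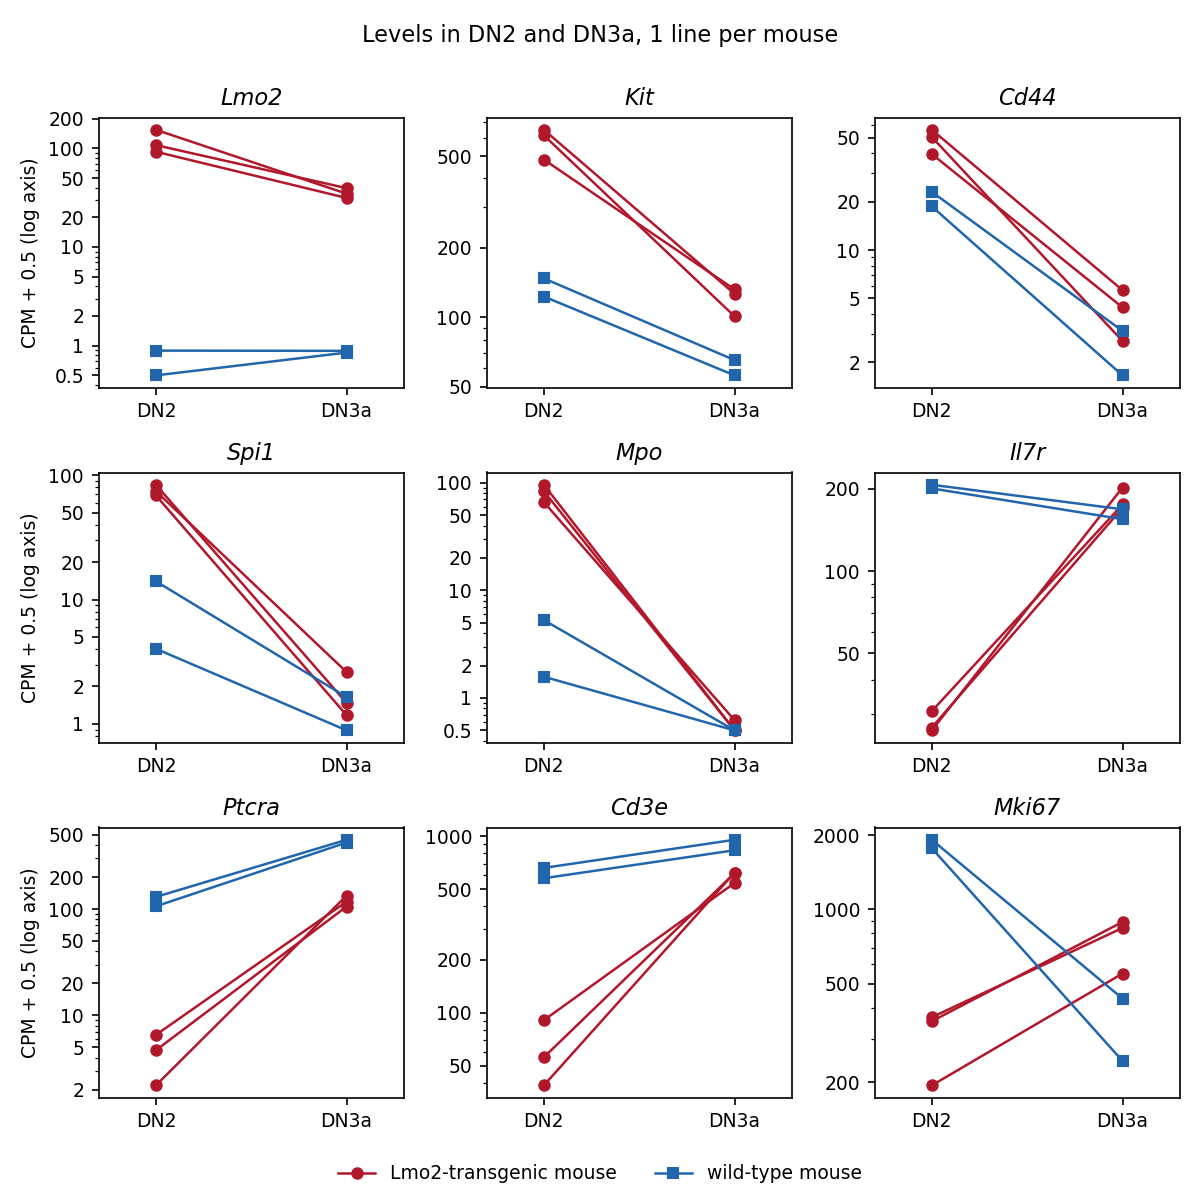
Levels of 9 genes in DN2 and DN3a, as CPM plus 0.5 on a log axis, with 1 line for each mouse (red circles, 3 transgenic mice; blue squares, 2 wild-type mice). In the transgenic mice Lmo2, Kit, Cd44, Spi1 and Mpo lay lower in DN3a and Il7r, Ptcra, Cd3e and Mki67 higher, whereas Mki67 lay lower in DN3a in both wild-type mice.

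The 10 young libraries in the fit held 7183303 to 11360308 counted reads. Replicates of a group correlated at 0.951 to 0.988 on log CPM, and the common biological coefficient of variation was 0.227. An unnamed feature of 5868 bases took 3.81, 16.6 and 12.4% of reads in transgenic DN2 and 7.13, 0.876 and 13.9% in DN3a. Its share went up in mice 162 and 166 and down in mouse 163. Transcripts of the mitochondrial chromosome took 3.75, 2.25 and 1.96% of reads in DN2 and 6.55, 8.88 and 10.4% in DN3a. Wild-type DN2 of mouse 1 stood apart, with reads in 13028 genes against 14474 to 15680 in the others. Cells of a sorted population were measured in bulk, so fewer cells of a type and less RNA per cell cannot be told apart.

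Between DN2 and DN3a, 1495 genes rose and 1710 fell in transgenic mice, which is 11.3% and 12.9% of the tested genes. The counts of list members given below are to be read against these shares. At an unadjusted p under 0.05 the 2 directions together came to 4674. The median fold change was 1.08 among the genes that rose and -1.30 among those that fell, against 0.01 over all tested genes. At least 2-fold changes were found in 825 genes that rose and 1101 that fell, and at least 16-fold in 79 and 180. Of the genes that rose, 1468 were higher in DN3a in each of the 3 mice, and of those that fell, 1694 were lower in each. The calls rest on the same 3 within-mouse differences, so this agreement is largely set by the call and is no separate support. The 3 DN3a libraries lay wholly above the 3 DN2 libraries for 2472 genes (18.7%) and wholly below for 2754 (20.8%). The 3205 calls became 1890 without mouse 163 and 2009 without mouse 166, and 3962 without mouse 162. Each of these 3 fits rests on 2 transgenic mice.

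**Figure D2:**
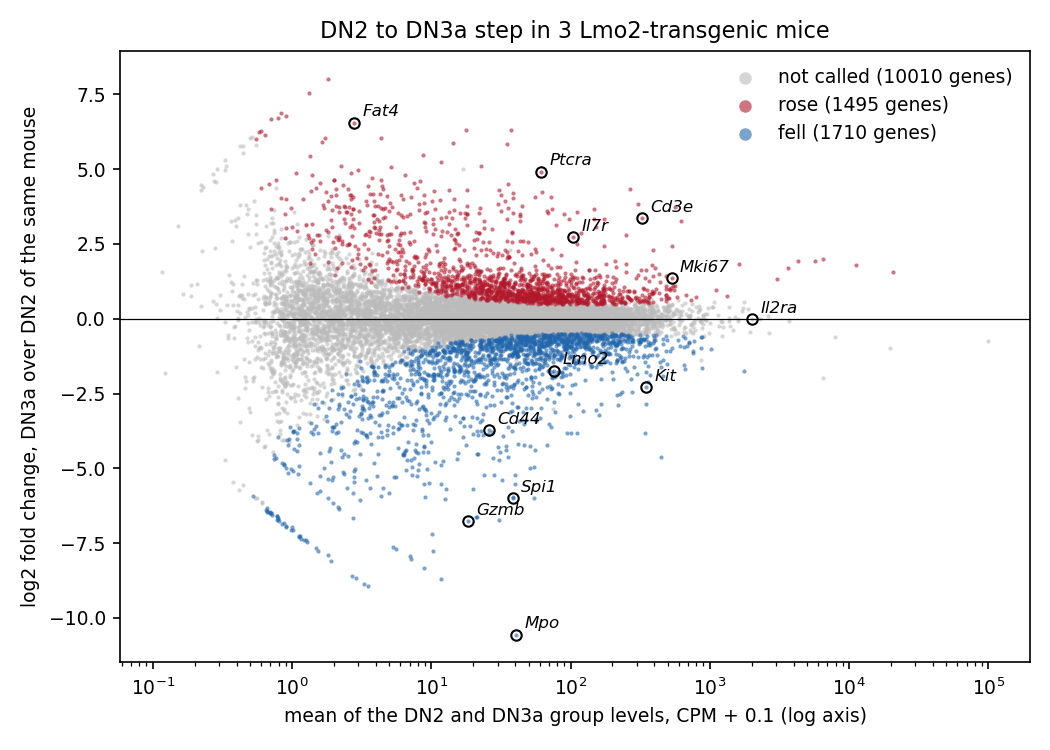
The transgenic step for all 13215 tested genes, with the mean level of the stages in CPM plus 0.1 (log axis) against the log2 fold change of DN3a over DN2. Red points are the 1495 genes that rose, blue points the 1710 that fell and grey points the rest, and 12 genes named in the text are circled, from Fat4 near the top to Mpo at the bottom.

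T cell receptor genes were switched up. The pre-T cell receptor alpha chain gene Ptcra stood at 6.04, 4.18 and 1.69 CPM in DN2 and at 117, 105 and 133 in DN3a, a rise of 4.92 ± 0.31 (adjusted p = 7.18e-08). Cd3d, Cd3e and Cd3g encode CD3 chains, the signalling part of the receptor. Cd3d went from 48.3, 30.6 and 8.70 to 450.1, 565 and 488 CPM (4.33 ± 0.45, adjusted p = 0.000139). Cd3e went from 90.3, 55.5 and 38.3 to 543, 617 and 621 CPM (3.35 ± 0.26). Cd3g went from 191, 109 and 68.7 to 915, 1024 and 1421 CPM (3.28 ± 0.34). In DN2 mouse 162 was highest for all 4 genes and mouse 166 lowest, while the 3 mice were close together in DN3a, and no DN3a value overlapped a DN2 value. Thy1, a surface glycoprotein of the T lineage, rose by 2.44 ± 0.24, and the adhesion receptor Cd2 by 3.50 ± 0.38 from 15.4, 6.11 and 2.60 CPM. The costimulatory receptor Cd28 rose by 2.55 ± 0.24. Of the kinases, Zap70, which binds phosphorylated CD3 chains, rose by 2.35 ± 0.19, while Lck, which phosphorylates them, measured 0.41 ± 0.22 (adjusted p = 0.199), and 0.58 (adjusted p = 0.0229) without mouse 162. In all, 14 of 22 genes of the receptor, the CD3 chains and proximal signalling rose and 2 fell, the inhibitory receptor gene Cd5 (-0.60 ± 0.20) and the adaptor gene Lcp2 (-0.58 ± 0.17). Cd5 and Lcp2 lost their calls without mouse 163, mouse 166 or either wild-type mouse, and Cd5 also without mouse 162. Both also lost them in the 6 transgenic libraries alone (adjusted p = 0.0585 and 0.0762 in edgeR's test). The list's median was 0.98.

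Regulators of T lineage commitment moved less as a group, with 5 of 20 tested members up, 4 down and a median of 0.17. Lef1, an HMG box factor of the T lineage, rose from 21.6, 18.5 and 6.36 to 188, 189 and 112 CPM (3.50 ± 0.24). Ikzf3 (2.99 ± 0.38), an Ikaros family factor, and the ETS factors Ets2 (2.61 ± 0.19) and Ets1 (1.43 ± 0.19) rose too. The commitment factor Bcl11b was already present in DN2, at 481, 674 and 538 CPM against 633, 612 and 741 in DN3a (0.24 ± 0.20, adjusted p = 0.443). Tcf7, the Notch-induced factor TCF-1, measured 0.33 ± 0.22 (adjusted p = 0.322) and the zinc finger factor Gata3 0.38 ± 0.18 (adjusted p = 0.132). Runx3 (-1.17 ± 0.18) and Sox4 (-1.23 ± 0.19) fell. Bcl11b, Tcf7 and Gata3 thus did not pass the test, but Gata3 did without mouse 162 (0.51, adjusted p = 0.0355).

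Of the genes for receptor gene rearrangement, 4 of 14 rose and 0 fell. Rag1, a subunit of the recombinase, went from 66.3, 103 and 66.2 to 1107, 1114 and 892 CPM, a rise of 3.75 ± 0.24 (adjusted p = 4.08e-08). Rag2, its partner from the same locus, stood at 42.5, 35.1 and 40.2 CPM in DN2 and 67.5, 55.2 and 38.3 in DN3a (0.42 ± 0.19, adjusted p = 0.131), with overlapping stages. Without mouse 166 it rose by 0.68 (adjusted p = 0.0409). The DNA ligase gene Lig4 rose by 1.33 ± 0.19. The other 2 that rose were the DNA end-binding gene Xrcc5 (0.72 ± 0.20), whose call was lost without mouse 163, and Hmgb2 (1.202 ± 0.31), a chromatin protein whose call was lost without mouse 163 or 166 and without the pairing. Reads of Hmgb2 may be shared with pseudogenes.

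Notch signalling drives the early T lineage, and 7 of 19 tested genes of the pathway and its targets fell, while 1 rose. Nrarp, a feedback inhibitor that Notch induces, went from 38.0, 35.4 and 40.8 to 7.30, 5.58 and 6.63 CPM (-2.55 ± 0.27, adjusted p = 5.93e-06). The target Hes1 (-0.91 ± 0.20), the receptor Notch2 (-0.996 ± 0.20) and the coactivator Maml1 (-1.06 ± 0.20) fell. Heyl, another target, was the member that rose (2.08 ± 0.47). Notch1 itself measured -0.02 ± 0.30 (adjusted p = 0.971), with mouse 162 low in DN2 (781, 2223 and 1986 CPM) and the 3 mice alike in DN3a (1639, 1609.5 and 1281 CPM). Without mouse 162 Notch1 was called as lower, at -0.53 (adjusted p = 0.0404). Without mouse 166 the adjusted p of Notch2 was 0.0572 and that of Heyl 0.0595.

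Genes of early T progenitors and stem cells fell together. Of 27 members 20 had enough reads to be tested, 18 of these fell and 0 rose, with a median of -2.51. Spi1 (PU.1), a transcription factor of myeloid cells and of the first thymic progenitors, went from 83.3, 68.3 and 74.0 to 0.973, 0.673 and 2.11 CPM (-5.99 ± 0.34, adjusted p = 1.81e-08). The progenitor surface gene Cd34 went from 53.7, 58.7 and 75.2 to 0.730, 0.289 and 5.12 CPM (-5.38 ± 0.57). Mef2c, a factor of early lymphoid progenitors (-4.96 ± 0.58), its fellow Bcl11a (-3.84 ± 0.36) and the homeobox gene Hhex (-3.07 ± 0.19) fell. Hhex still measured 24.0, 24.4 and 30.1 CPM in DN3a. Hoxa9, a homeobox gene of stem cells, had 40 reads in DN2 and 1 in DN3a (40.9-fold lower, interval 6.93 to 1656), and lost its call without mouse 166. For these genes all 3 DN3a libraries lay below all 3 DN2 libraries. Cd93 (-0.45 ± 0.22, adjusted p = 0.167) and Gata2 (-2.14 ± 1.01, adjusted p = 0.142) were the tested members without a call. Without mouse 162 Cd93 was called, at -0.75 (adjusted p = 0.00738). The summed level of the list was 2271, 2263 and 2379 CPM in DN2 and 641, 582 and 559 in DN3a.

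Proteins that join LMO2 in its complexes did not move as a block. The basic helix-loop-helix partners Tal1 (from 8.54, 8.04 and 14.5 to 0.243, 0.192 and 0.301 CPM, -5.30 ± 0.64) and Lyl1 (from 231, 147 and 138 to 66.1, 56.8 and 38.1 CPM, -1.68 ± 0.18) fell. The bridging partner Ldb1 measured -0.38 ± 0.19 (adjusted p = 0.168). Of the E proteins, Tcf3 measured -0.16 ± 0.18 (adjusted p = 0.564) and Tcf12 0.47 ± 0.19 (adjusted p = 0.0874, but 0.0444 and 0.0392 in the fits of group means over 10 and 17 libraries), and Tcf4 fell (-0.95 ± 0.17). Gata1, a zinc finger partner from the erythroid lineage, rose by 1.93 ± 0.50 at a low level, 8.39, 7.31 and 8.13 CPM in DN3a, and lost its call without mouse 163 (adjusted p = 0.0893) or mouse 166 (0.0908). Id2 and Id3, inhibitors of E proteins, had no call. The list had 1 gene up and 5 down of 17 tested, with Lmo2 among the latter.

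Receptors for cytokines moved in both directions. Il7r, the interleukin 7 receptor on which early thymocytes depend, stood at 30.2, 26.2 and 25.6 CPM in DN2 and 175, 169.9 and 202 in DN3a (2.73 ± 0.18, adjusted p = 6.95e-08). The interferon gamma receptor gene Ifngr1 rose by 1.92 ± 0.19 and the interleukin 9 receptor gene Il9r by 2.30 ± 0.27. The receptor genes for interleukin 4, Il4ra (-2.66 ± 0.23), transforming growth factor beta, Tgfbr2 (-1.36 ± 0.20), and interleukin 10, Il10ra (-1.44 ± 0.17), fell. Il18rap, a chain of the interleukin 18 receptor, had 322 reads in DN2 and 1 in DN3a (329-fold lower, interval 58.7 to 13046). Csf2rb, the beta chain shared by myeloid cytokine receptors, had 86 and 0 (at least 29.3-fold lower) and lost its call without mouse 166 and in DESeq2. Of 24 tested receptors 6 rose and 8 fell.

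Of homing and adhesion genes 5 of 23 rose and 4 fell, where 11.3% and 12.9% of all tested genes did so. Ccr9, a chemokine receptor of thymocytes, rose by 2.62 ± 0.30, and the integrin subunit Itgae by 3.08 ± 0.39. The integrin subunits Itgb7 (-2.56 ± 0.21) and Itgam (-4.70 ± 0.38) fell, and so did Itga2 (66.0-fold lower, interval 17.9 to 550.5), whose call was lost without mouse 166. Of coreceptor and mature alpha beta T cell genes 5 of 23 rose and 4 fell. The coreceptor genes Cd8a (from 9.38, 11.4 and 1.82 to 38.7, 51.8 and 27.1 CPM, 2.58 ± 0.34) and Cd8b1 (from 3.90, 4.98 and 1.04 to 22.1, 25.2 and 19.4 CPM, 2.89 ± 0.42) rose although the cells are named double negative, and Cd4 measured 1.22 ± 0.65 (adjusted p = 0.199). The inhibitory receptor Ctla4 rose by 3.53 ± 0.26, and the surface glycoprotein gene Cd52 fell (-3.74 ± 0.28). Markers of the double positive stage were up in 9 of 14 genes and down in 0, a list that shares Cd4, Cd8a, Cd8b1, Ccr9 and Themis, among others, with the lists above. Its summed level was 938, 1079.5 and 1009 CPM in DN2 and 1539, 1708 and 1622 in DN3a. Whether double positive cells take part in these values was not tested. Gamma delta T cell genes had 5 of 17 up and 5 down. Cd163l1, a scavenger receptor of gamma delta cells, rose by 2.85 ± 0.20, and Blk, a kinase of the same cells, fell (-2.70 ± 0.31).

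Among genes of other blood lineages, myeloid markers fell and other lists moved in part. Mpo, the peroxidase of granulocyte precursors, had 65.6, 82.97 and 95.3 CPM in DN2 (1956 reads) and 0.122, 0 and 0 in DN3a (1 read), 2000.2-fold lower, interval 359 to 79043 (adjusted p = 1.13e-08). The lysozyme gene Lyz2 fell (-2.63 ± 0.29) from 24.5, 23.0 and 22.8 CPM. The granule protease gene Ctsg (77.7-fold lower, interval 13.5 to 3109.5) and the antibody receptor gene Fcgr3 (at least 9.88-fold lower) fell at lower levels. Of the 16 myeloid markers 6 had reads enough to be tested, 5 of them fell, and Cd68 measured 0.52 ± 0.31 (adjusted p = 0.265). Without mouse 163 or without mouse 166 the count was 3. Ctsg lost its call both times and in DESeq2, and Fcgr3 without mouse 163 and without the filter on low counts. The markers' summed level was 136, 153 and 178 CPM in DN2 and 25.3, 21.0 and 37.2 in DN3a, against 34.7 and 35.0 in wild-type DN2. The defining markers of mature neutrophils and granulocyte precursors S100a8, S100a9, Elane and Ms4a3 had 0 reads at both stages, which allows up to 0.121 CPM in DN2 and 0.119 CPM in DN3a. Myeloid genes and progenitor genes fell in the same libraries, and the part that myeloid cells might take in the fall of the latter was not tested.

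Among markers of natural killer and innate lymphoid cells 8 of 12 tested fell and 1 rose. Gzmb, a granule protease of cytotoxic cells, went from 40.3, 28.1 and 39.5 to 0.608, 0.0962 and 0.301 CPM (-6.76 ± 0.47, adjusted p = 1.7e-07). Gzma, another granule protease, went the other way by 3.67 ± 0.29 (from 36.0, 23.2 and 10.4 to 236, 355 and 231 CPM). Tyrobp, an adaptor of activating receptors (-5.95 ± 0.61), and Zbtb16, the factor PLZF of innate lymphocytes (42.9-fold lower, interval 14.4 to 211), fell. Without mouse 166 the count of falls was 4, with Zbtb16 among those lost. The summed level overlapped between stages, at 322, 253 and 286 CPM in DN2 and 278, 403 and 304 in DN3a. Ncr1 and Klrk1, receptors that define natural killer cells, had 0 reads at both stages. Of 9 tested dendritic cell and class II genes 4 fell, among them Itgax (248-fold lower, interval 68.4 to 2058), which encodes CD11c, and H2-DMa (-1.52 ± 0.24). Siglech, Xcr1 and Batf3 had 0 reads.

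Other marker lists held few tested genes. Of 5 tested B cell markers the ETS factor gene Spib, also a gene of early thymocytes, rose (1.62 ± 0.19) and 0 fell, and Ms4a1 and Fcrla had 0 reads. Among mast cell markers Cpa3, a protease also found in early progenitors, fell (-0.72 ± 0.21) from 784, 684 and 734 to 389, 590.3 and 381 CPM, while Cma1, Mcpt4 and Ms4a2 had 0 reads. Cpa3 lost its call without mouse 166, in the 6 transgenic libraries alone and in both fits of group means. Megakaryocyte markers fell in 2 of 4 tested genes, the factor gene Nfe2 (-2.45 ± 0.19) and the platelet integrin gene Itga2b (-1.98 ± 0.50), whose call was lost without any 1 of the 3 mice, and Pf4 and Ppbp had 0 reads. Erythroid markers moved both ways, with Tfrc (1.004 ± 0.19), the transferrin receptor of all dividing cells, and Gata1 up and the carbonic anhydrase gene Car2 (-4.32 ± 0.58) and the globin gene Hbb-bs (-4.63 ± 1.07) down. Reads of Hbb-bs can be shared with a near-identical globin gene, so its value is uncertain, and its call was lost without any 1 of the 3 mice. Of 5 tested stroma genes Epcam, also a thymocyte surface gene, rose by 3.70 ± 0.26, and the growth factor receptor gene Pdgfrb (-1.62 ± 0.20) and the endothelial gene Pecam1 (-0.91 ± 0.17) fell, while Foxn1, Pdgfra and Col3a1, which define thymic epithelium and mesenchyme, had 0 reads.

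Cell cycle genes rose. Of 36 S phase genes 28 rose and 0 fell (median 1.05), and of 36 G2 and M phase genes 32 rose and 0 fell (median 1.15). Mki67, a nuclear protein of cycling cells, stood at 353, 194 and 366 CPM in DN2 and 889.9, 550.4 and 842 in DN3a (1.35 ± 0.21, adjusted p = 0.000219). The topoisomerase gene Top2a went from 286, 160.5 and 357 to 652, 597 and 560.4 CPM (1.24 ± 0.24). Tyms, which makes thymidylate for DNA synthesis, went from 38.2, 18.8 and 29.1 to 70.3, 87.5 and 68.1 CPM (1.42 ± 0.23). Mouse 163 was the lowest of the DN2 mice for all 3 genes, and the stages did not overlap. The replication regulator Uhrf1 rose by 1.80 ± 0.20, cyclin E genes Ccne1 by 1.69 ± 0.42 and Ccne2 by 1.56 ± 0.32, and the mitotic genes Bub1 by 1.48 ± 0.23 and Kif11 by 1.36 ± 0.21; Kif11 lost its call in the fit over all 17 libraries. Ccne1 lost its call without mouse 163 or 166. The summed level of the 36 G2 and M phase genes was 2004, 937 and 1909 CPM in DN2 and 3821, 2999 and 3537 in DN3a, so that it rose most in mouse 163. Without that mouse 18 S phase and 16 G2 and M phase genes were called, and without mouse 166 the counts were 26 and 25. In a fit of group means over all 17 libraries 30 S phase genes but only 8 G2 and M phase genes were called.

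Inhibitors of the cell cycle and quiescence genes had 3 members up and 3 down of 20 tested, near the 11.3% and 12.9% of all tested genes. Cdkn2c (p18), an inhibitor of CDK4 and CDK6, rose by 2.46 ± 0.30, the antiproliferative gene Btg1 by 0.998 ± 0.19 and the retinoblastoma relative Rbl1 by 0.86 ± 0.18. Klf2, a factor of quiescent T cells (-1.89 ± 0.27), Rbl2, another retinoblastoma relative (-0.76 ± 0.19), and Ccng2, a cyclin of arrested cells (-0.66 ± 0.17), fell. Rbl2 and Ccng2 lost their calls without mouse 163, and Rbl2 also without mouse 166. Cdkn1a (p21) measured -0.55 ± 0.21 (adjusted p = 0.0719) and Cdkn1b (p27) -0.10 ± 0.20 (adjusted p = 0.774). In the BCL2 family the survival gene Bcl2 rose by 1.32 ± 0.17, from 70.0, 75.6 and 93.9 to 192, 206 and 194 CPM. Bid, which promotes cell death, rose by 0.71 ± 0.20, and the survival gene Bcl2l2 fell (-0.98 ± 0.25). Bid and Bcl2l2 lost their calls without mouse 163, and Bid also without mouse 166.

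Biosynthesis genes rose with the cell cycle genes. Of ribosome biogenesis and MYC genes 18 of 27 rose and 1 fell (median 0.72). Myc went from 155, 107 and 102 to 261, 178 and 163 CPM (0.72 ± 0.17, adjusted p = 0.00508). Its relative Mycn was the member that fell, from 115, 78.5 and 70.0 to 22.4, 17.03 and 21.2 CPM (-2.10 ± 0.21, adjusted p = 3.31e-06). The nucleolar protein genes Gnl3 (1.22 ± 0.20) and Nop58 (1.07 ± 0.21) rose. Of cholesterol synthesis genes 17 of 23 rose and 0 fell (median 0.85), among them the enzyme genes Dhcr7 (1.48 ± 0.17) and Cyp51 (1.47 ± 0.18). Without mouse 163 the counts were 10 ribosome biogenesis and 8 cholesterol genes. Glycolysis genes were split, with 5 up and 4 down of 20. The lactate transporter gene Slc16a1 rose from 59.1, 57.2 and 46.0 to 273, 350.1 and 256 CPM (2.43 ± 0.18) and the phosphofructokinase gene Pfkp by 2.27 ± 0.21, while the aldolase gene Aldoa (-1.39 ± 0.19) and the muscle type phosphofructokinase gene Pfkm (-0.90 ± 0.19) fell.

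All 15 genes of the mitochondrial chromosome rose, with a median of 1.79. ND1, a subunit of respiratory complex I, stood at 3703, 2322 and 1864 CPM in DN2 and 7600.1, 9916 and 13467 in DN3a (2.00 ± 0.37, adjusted p = 0.000967). Mouse 166 was the lowest of the DN2 mice and the highest of the DN3a mice. Nuclear genes of the respiratory chain were called in 4 of 34 cases, all up (median 0.36), near the 11.3% of all tested genes that rose. Among the 4 were Cox6c of complex IV at 0.83 ± 0.22 and Ndufa5 of complex I at 0.92 ± 0.25. These 2 lost their calls without mouse 163 or 166. The part of RNA quality or cell handling in the mitochondrial levels was not tested. Of 79 cytosolic ribosomal protein genes 1 was called, Rpl12 (0.84 ± 0.27), whose reads may be shared with pseudogenes. The call of Rpl12 was lost without mouse 163 or 166 and in both fits of group means. Without the mitochondrial genes, Lars2 and the unnamed feature, 3182 genes were called in the step in place of 3205.

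Interferon response genes fell. Of 28 tested genes 19 fell and 0 rose, with a median of -1.11. Oas2, which senses double-stranded RNA, went from 86.6, 74.1 and 95.0 to 13.1, 8.08 and 37.2 CPM (-2.40 ± 0.30, adjusted p = 4.63e-05). Mouse 166 kept the highest DN3a level, and the stages did not overlap. The antiviral genes Ifit3 (-2.96 ± 0.40), Oas3 (-2.32 ± 0.23) and Isg15 (-1.18 ± 0.23) and the factor gene Irf7 (-1.61 ± 0.19) fell. Immediate early genes, which cell handling can also induce, had 8 of 23 members down and 1 up, Myc. Jun, a subunit of the AP-1 factor, went from 77.3, 355 and 280.0 to 27.4, 106 and 177 CPM (-1.297 ± 0.23, adjusted p = 0.000604), with overlapping stages. The list's summed level was 1189, 2702 and 1903 CPM in DN2 and 948, 1574 and 1644 in DN3a. In DN2, mouse 162 was lowest and mouse 163 highest for this sum, for Jun, for Notch1 and for the share of the unnamed feature, and the part of that feature in these results was not tested. Jun also lost its call in both fits of group means, with adjusted p of 0.298 over the 10 libraries and 0.399 over all 17.

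The largest rises by the naming rule included genes nearly silent in DN2, but also Ptcra, which had 104 reads there. Fat4, a giant cadherin, had 1 read in DN2 and 4.01, 4.91 and 7.08 CPM in DN3a (128-fold higher, interval 22.6 to 5098). Slc5a9, a sugar transporter, went from 1.76, 0.643 and 0.130 to 82.5, 29.8 and 109 CPM (6.33 ± 0.48), and the sodium channel subunit gene Scn4b from 1.11, 1.13 and 1.298 to 65.9, 58.6 and 82.4 CPM (5.86 ± 0.30, adjusted p = 1.13e-08). Igf2, an insulin-like growth factor, went from 0.743, 0.643 and 0 to 29.4, 22.3 and 31.6 CPM (5.87 ± 0.64). Fam163b (6.31 ± 0.99), Greb1 (5.49 ± 0.76), Ogdhl (5.23 ± 0.40), Vwce (5.11 ± 0.71), Scn2b (5.06 ± 0.51), Pdgfa (4.99 ± 0.77) and Adamtsl2 (67.5-fold higher, interval 22.8 to 329.9) followed, with Ptcra. Fam163b, Adamtsl2 and Vwce lost their calls without mouse 162.

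The largest falls by the naming rule were in genes that came close to 0 in DN3a. After Mpo, the ribonuclease gene Rnase6 had 168 reads in DN2 and 0 in DN3a (at least 57.3-fold lower), and lost its call in DESeq2. The others without a read in DN3a were Cd180, a Toll-like receptor homologue (at least 52.8-fold lower), the aquaporin gene Aqp9 (at least 46.4-fold lower) and Lrrc25 (at least 44.3-fold lower). Serpina3g, a protease inhibitor (586-fold lower, interval 105 to 23183), the G protein subunit gene Gna15 (446-fold lower, interval 79.6 to 17650.0) and the melanocortin receptor gene Mc5r (328-fold lower, interval 58.5 to 13005) had 1 read each in DN3a, as Il18rap did. So did the lectin genes Cd33 (259-fold lower, interval 46.0 to 10259) and Siglecg (272-fold lower, interval 48.4 to 10784). Itgax had 2 reads there.

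The same step in the 2 wild-type mice was set beside these changes. There 414 genes rose (3.13%) and 567 fell (4.29%), from 2 pairs of libraries. Both steps were called for 645 genes, 320 in the same direction (161 up, 159 down), which is 9.98% of the transgenic and 32.6% of the wild-type calls. The directions were opposite for 325, or 10.1% and 33.1%. Of these, 267 rose in transgenic and fell in wild-type mice and 58 the reverse. Across the 13215 genes the fold changes of the 2 steps correlated at a Pearson r of 0.215 and a Spearman rho of -0.077. This is a description over genes, which are not independent replicates. The steps themselves differed, transgenic minus wild-type, for 1212 genes upward (9.17%) and 1223 downward (9.25%), of which 1753 were among the 3205 transgenic calls. Without wild-type mouse 1, whose DN2 library stood apart, 959 genes differed, and 148 rose in transgenic and fell in wild-type mice. Without wild-type mouse 2 these counts were 1568 and 121. Without transgenic mouse 162 they were 3762 and 513, and without mouse 163 they were 1420 and 135.

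The cell cycle genes moved in opposite directions in the 2 genotypes. In wild-type mice 25 of 36 S phase genes fell (median -1.20), as did 36 of 36 G2 and M phase genes (median -2.29). The difference between steps was called upward for 34 and 36 genes of these lists. Of the 72 genes, 53 rose in transgenic and fell in wild-type mice, or 31 without mouse 163 and 23 in the fit of group means over all 17 libraries. Mki67 stood at 1913 and 1768 CPM in wild-type DN2 and 436 and 244 in wild-type DN3a, a change of -2.50 ± 0.27, and its steps differed by 3.84 ± 0.34 (adjusted p = 1.1e-05). The summed G2 and M phase level was 7587 and 7575 CPM in wild-type DN2 and 1987 and 1244 in wild-type DN3a. By this sum transgenic cells began the step below wild-type cells of the same stage and ended it above them, with no overlap at either stage. The S phase falls were fewer without wild-type mouse 1 (10) or mouse 2 (11), while the G2 and M phase counts were 36 and 30. Bcl2 and Cdkn2c also rose in transgenic and fell in wild-type mice (-1.09 ± 0.21 and -2.05 ± 0.37 there). Their steps differed by 2.41 ± 0.27 and 4.51 ± 0.48. The mitochondrial genes had differences upward for 15 of 15, with a wild-type median of -0.93, although only 1 was called as lower in wild-type mice. Their summed level was 130379 and 116081 CPM in wild-type DN2, above the 34971, 26037 and 21159 of transgenic DN2. In DN3a the genotypes overlapped, at 81147.5 and 58688 CPM in wild-type and 64955, 86066 and 119796 in transgenic mice.

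**Figure D3:**
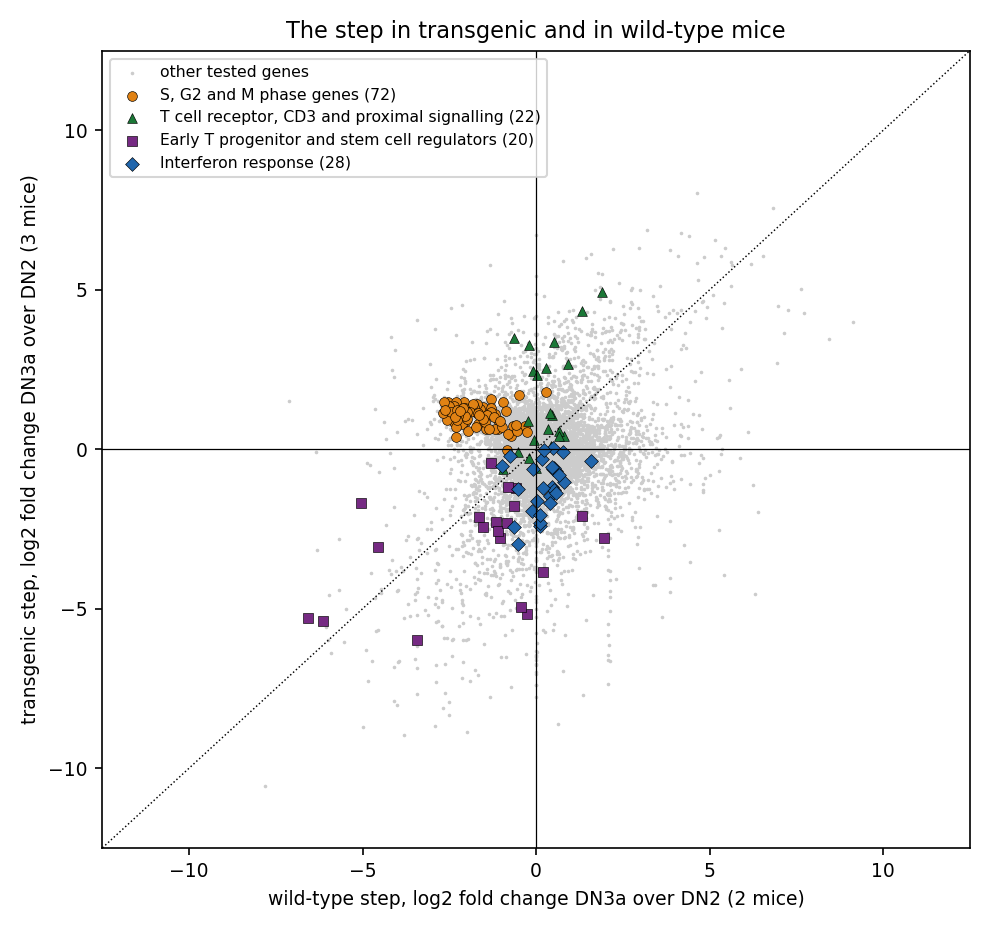
Log2 fold change of DN3a over DN2 for each tested gene in wild-type mice (horizontal axis, 2 mice) and transgenic mice (vertical axis, 3 mice), with the dotted line where the steps are equal. Of the coloured lists, S, G2 and M phase genes (orange) lie at the upper left, T cell receptor genes (green) mostly above the line, progenitor regulators (purple) at the bottom and interferon genes (blue) below the horizontal axis.

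Part of the T cell receptor genes went up more over the step in transgenic than in wild-type mice. In wild-type mice 1 of the 22 rose and 1 fell (median 0.32), so most had no called rise there. The steps differed upward for 10 of 22 list members and downward for 0. The list's summed level was 3507, 2922 and 2630 CPM in transgenic DN2 and 6543, 7105 and 7274 in transgenic DN3a. In wild-type mice the sum was 8021 and 7738 CPM in DN2 and 10340 and 9278 in DN3a. By this sum transgenic cells lay below wild-type cells at both stages. Ptcra stood at 106 and 129 CPM in wild-type DN2 and 422 and 448 in wild-type DN3a (1.89 ± 0.30), and the transgenic step was larger by 3.03 ± 0.42 (adjusted p = 0.000216). Cd3e stood at 661 and 578 CPM in wild-type DN2 and 954 and 832 in DN3a (0.53 ± 0.29, adjusted p = 0.304), and its steps differed by 2.83 ± 0.38. Il7r stood at 207 and 200.3 CPM in wild-type DN2, above all 3 transgenic DN2 values, and at 168 and 154 in wild-type DN3a (-0.34 ± 0.21, adjusted p = 0.362), and its steps differed by 3.07 ± 0.28. Cd2 was near 0 at both wild-type stages, with 0.857 and 0.684 CPM in DN2 and 0.263 and 0.772 in DN3a, and its steps differed by 4.13 ± 0.89 (adjusted p = 0.00636). The difference of Cd2 lost its call without wild-type mouse 1 and in limma voom.

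As a list, progenitor genes fell in both genotypes to different extents. In wild-type mice 9 of 20 fell and 1 rose (median -1.07), and the steps differed downward for 10 and upward for 2. The list's summed level was 797 and 571 CPM in wild-type DN2 and 342 and 324 in wild-type DN3a. In transgenic mice it was 2271, 2263 and 2379 CPM in DN2 and 641, 582 and 559 in DN3a. By this sum transgenic cells lay above wild-type cells of the same stage both before and after the step. Spi1, at 13.5 and 3.52 CPM in wild-type DN2 and 1.14 and 0.386 in DN3a, fell further in transgenic mice (difference -2.57 ± 0.61, adjusted p = 0.00916). Bcl11a and Mef2c fell in transgenic mice, with differences from the wild-type step of -4.04 ± 0.53 and -4.53 ± 0.80. Lyl1 and Hhex fell less, with differences of 3.36 ± 0.38 and 1.48 ± 0.41, and the mast cell and progenitor protease gene Cpa3 likewise (3.80 ± 0.35). The difference of Spi1 lost its call without wild-type mouse 1 (adjusted p = 0.106), without the pairing (0.0655) and in limma voom (0.0517). That of Hhex was lost without either wild-type mouse or mouse 166 and in limma voom. In the fit of group means over all 17 libraries the differences were 0.01 for Hhex (adjusted p = 0.992), 1.65 for Lyl1 (0.165) and 2.26 for Cpa3 (0.152), none of them called. Mycn fell in transgenic and rose in wild-type mice (1.34 ± 0.25, difference -3.44 ± 0.33). Cd44 fell in wild-type mice as well (-3.46 ± 0.39), and the difference of -0.27 ± 0.50 had an adjusted p of 0.758. The Notch target Dtx1 measured 0.10 ± 0.18 in transgenic mice (adjusted p = 0.756) and rose in wild-type mice from 37.6 and 73.1 to 273 and 338 CPM (2.53 ± 0.24, difference -2.43 ± 0.29). Differences among Notch genes were downward for 7 of 19. Among interferon response genes the difference was downward for 19 of 28, and wild-type mice had 1 fall and 2 rises. Their summed level was 1652, 1458 and 1872 CPM in transgenic DN2 and 944, 872 and 1191 in transgenic DN3a. In wild-type mice the sum was 980 and 902 CPM in DN2 and 1316 and 1172 in DN3a. By this sum transgenic DN2 lay above wild-type cells of both stages, and transgenic DN3a overlapped both.

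Among the largest differences by the naming rule, Colq, a collagen of the synapse, rose in transgenic mice from 21.3, 19.1 and 12.6 to 181, 189 and 159 CPM and fell in wild-type mice (3.34 ± 0.20 against -1.46 ± 0.23, difference 4.80 ± 0.30, adjusted p = 9.97e-07). The chromatin remodeller Chd7 (5.10 ± 0.68), the iron exporter Slc40a1 (5.13 ± 1.10), the protease inhibitor Serpine2 (5.20 ± 0.997) and the growth factor Tgfb2 (6.67 ± 1.88) differed upward. So did H2-Q2 (7.69 ± 0.81), one of several class I genes with nearly the same sequence, so its value is uncertain. The difference of Tgfb2 was -0.12 (adjusted p = 0.856) without wild-type mouse 1 and lost its call also without mouse 163 or 166. Downward differences were led by Lrrc25 and Cd33, and by the membrane protein gene Mctp1 (-6.65 ± 1.62), Itgax (-6.44 ± 1.10), the ubiquitin ligase gene Rnf180 (-6.21 ± 1.27) and the sulfatase gene Sulf2, with 160 reads in transgenic DN2 and 3 in DN3a (54.5-fold lower, interval 18.3 to 267). The differences of Lrrc25 and Sulf2 lost their calls without mouse 163 or 166, and that of Lrrc25 also without wild-type mouse 1. A fitted difference that includes a stage with no or few reads depends on the prior count, so its size is uncertain.

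**Figure D4:**
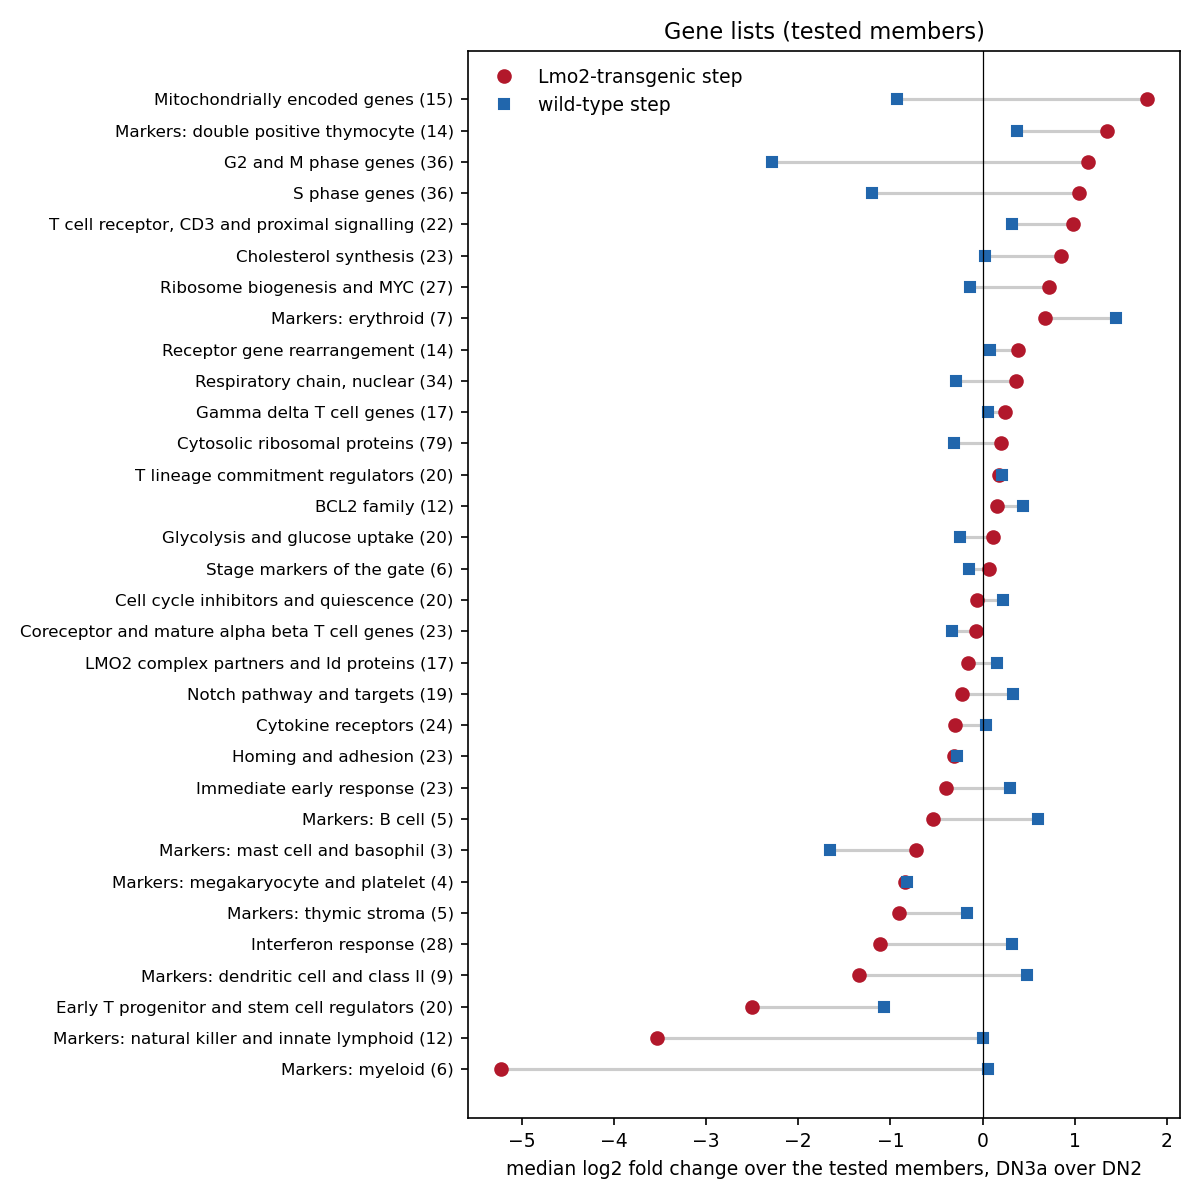
Median log2 fold change of DN3a over DN2 over the tested members of each gene list (number tested in parentheses) in transgenic (red circles) and wild-type mice (blue squares). The medians of S phase, G2 and M phase and mitochondrially encoded genes lie above 0 in transgenic and below 0 in wild-type mice, and those of interferon response genes the other way round.

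DN3a libraries of the 3 older transgenic mice put the DN3a values beside a later age. They share no animal with the step, and their levels are CPM without TMM scaling. Lmo2 (20.2 to 29.5 CPM), Cd44 (6.30 to 10.8), Il7r (196 to 284), Mpo (0.0926 to 0.105) and Spi1 (0.0926 to 0.105) lay on the same side of transgenic DN2 as young DN3a. Of the genes that had risen most, some were high at the later age and some low. Fat4 stood at 17.04 to 26.2 CPM, above its young DN3a values, and Greb1 (21.7 to 44.6) and Ogdhl (20.2 to 33.7) were high as well. Ptcra stood at 16.8 to 27.0 CPM and Igf2, at 29.4, 22.3 and 31.6 CPM in young DN3a, at 0 to 0.733. Fam163b had 37.6, 30.5 and 36.6 CPM in young DN3a and 0.185 to 1.05 at the later age, and the growth factor gene Pdgfa 4.99, 4.71 and 7.08 and 0 to 0.105. Rag1 stood at 559 to 1196 CPM. Age was not tested here.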

How the data were processed

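RNA of sorted DN2 and DN3a thymocytes was sequenced in single-end reads, per the labels' protocols. The authors deposited whole-number read counts per Entrez gene. The submitters' processing notes name featureCounts and the build mm10. Aligner, annotation and strand setting were not given in the sources used here. The RefSeq table named 25275 of 27179 identifiers. The 1904 others held 0.954 to 19.9% of reads per library.

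The 10 young libraries of the 5 mice with both stages entered edgeR 4.0.16 (R 4.3.3) with TMM scaling, filterByExpr (minimum count 10, minimum total 15), a term for each mouse, a stage effect per genotype and a robust quasi-likelihood fit. The filter left 13215 of 18150 genes with a read. Wild-type DN3a replicate 3 had no DN2 partner and was not used. P-values were Benjamini-Hochberg adjusted over all tested genes. Stages were paired by the mouse in the labels, since both came from the same animal. Deviations from the group mean correlated within mice at 0.0105, -0.072 and 0.0949 in mice 162, 163 and 166 and at 0.194 in wild-type mice. Between different transgenic mice the values ran from -0.0867 to 0.0912 and overlapped those within mice. With 2 wild-type mice the deviations mirror each other, so both have the same value by construction. The pairing thus rests on the labels and not on these values. The step was tested on simulated data before use. DESeq2 1.42.0 and limma 3.58.1 (voom) were alternatives.

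The 32 gene lists (670 genes, 42 on several) and the comparison were chosen with earlier results of these data known. Genes were named by a rule: Lmo2, stage markers, the 12 called genes of largest change in each direction among those with at least 5 CPM and no overlap, the 6 largest differences between steps in each direction, and up to 4 called members per list. Of the 160 genes given with fold values, 114 fall under it. The rest are textbook members of the lists or uncalled defining members, and were chosen after their values were seen. The same counts, also deposited as 1 table per library, were not used again. Some genes are not reported here.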

Additional observations from a re-analysis of the deposited data

Results flagged for a closer look

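The DN2 to DN3a step of 100 genes named above differed between the genotypes by the test of the difference itself (edgeR's quasi-likelihood test, Benjamini-Hochberg adjusted over 13215 genes). Each value is the transgenic minus the wild-type log2 fold change, so that a positive value means that the gene went up more, or down less, in transgenic mice. Among T cell receptor and CD3 genes the difference was 4.13 for Cd2, 3.47 for Cd3g, 3.03 for Ptcra, 3.01 for Cd3d, 2.83 for Cd3e, 2.53 for Thy1, 2.33 for Zap70 and 2.25 for Cd28. Among regulators of commitment and rearrangement the difference was 3.04 for Ikzf3, 2.91 for Hmgb2, 1.56 for Rag1, 1.12 for Lef1, 1.01 for Ets1, 0.94 for Lig4, 0.94 for Xrcc5, 0.93 for Ets2 and 0.89 for Gata3. It was -1.36 for Sox4. Among Notch genes the difference was -2.43 for Dtx1, -1.81 for Nrarp, -1.66 for Maml1, -1.39 for Hes1 and -1.01 for Notch2. Among progenitor regulators and LMO2 partners the difference was 3.36 for Lyl1 and 1.48 for Hhex. It was -4.53 for Mef2c, -4.04 for Bcl11a, -3.44 for Mycn, -2.57 for Spi1, -1.12 for Kit, -1.11 for Tcf4 and -0.93 for Nfe2. Among S, G2 and M phase genes the difference was 4.002 for Bub1, 3.84 for Mki67, 3.72 for Kif11, 3.53 for Top2a, 3.24 for Tyms, 2.87 for Ccne2, 2.17 for Ccne1 and 1.51 for Uhrf1. Among cell cycle inhibitors and BCL2 relatives the difference was 4.51 for Cdkn2c, 2.41 for Bcl2 and 1.92 for Rbl1. It was -1.46 for Bcl2l2, -1.44 for Rbl2 and -1.32 for Cdkn1a. Among ribosome biogenesis, ribosomal protein, cholesterol and glycolysis genes the difference was 3.31 for Pfkp, 2.82 for Slc16a1, 2.00 for Cyp51, 1.70 for Nop58, 1.69 for Gnl3 and 1.35 for Rpl12. It was -1.56 for Aldoa and -1.44 for Pfkm. Among respiratory chain genes the difference was 3.17 for ND1, 1.52 for Cox6c and 1.504 for Ndufa5. Among interferon response and immediate early genes the difference was -2.53 for Oas2, -2.44 for Oas3, -2.43 for Ifit3, -2.28 for Jun, -1.64 for Isg15 and -1.63 for Irf7. Among cytokine receptor, homing, coreceptor and gamma delta genes the difference was 3.57 for Cd8a, 3.50 for Cd163l1, 3.27 for Ctla4, 3.07 for Il7r, 3.03 for Cd8b1, 2.49 for Ifngr1 and 1.78 for Il9r. It was -5.26 for Itgam, -3.45 for Cd52, -2.68 for Il10ra, -2.04 for Blk and -1.53 for Tgfbr2. Among markers of other cell types the difference was 4.06 for Gzma, 3.80 for Cpa3, 2.12 for Tfrc and 2.09 for Epcam. It was -6.44 for Itgax, -3.55 for Tyrobp, -2.95 for Lyz2, -1.79 for H2-DMa and -1.44 for Pdgfrb. Among the remaining genes the difference was 7.69 for H2-Q2, 6.67 for Tgfb2, 5.20 for Serpine2, 5.13 for Slc40a1, 5.10 for Chd7, 4.80 for Colq, 3.35 for Slc5a9, 2.84 for Ogdhl and 2.30 for Scn2b. It was -9.23 for Lrrc25, -9.03 for Cd33, -6.65 for Mctp1, -6.21 for Rnf180, -5.87 for Sulf2, -5.82 for Gna15 and -5.02 for Siglecg. Where a stage had no or few reads, the fitted value depends on the prior count and is no bound. No group had the 4 to 10 samples needed to test for a sample far from the others. Of these differences, 46 lost their call in at least 1 of the alternative analyses. Without the replicate block those lost were Jun (adjusted p = 0.247), Lef1 (adjusted p = 0.257), Nfe2 (adjusted p = 0.0738), Siglecg (adjusted p = 0.0719) and Spi1 (adjusted p = 0.0655). Without one or the other wild-type mouse those of Bcl2l2, Blk, Ccne1, Cd2, Cd3d, Cd8b1, Cdkn1a, Cox6c, Ets1, Ets2, Gata3, Gna15, Hes1, Hhex, Ifit3, Ikzf3, Il9r, Irf7, Isg15, Kit, Lef1, Lig4, Lrrc25, Ndufa5, Nfe2, Notch2, Nrarp, Pdgfrb, Pfkm, Rag1, Rbl2, Rpl12, Scn2b, Siglecg, Sox4, Spi1, Tcf4, Tgfb2, Tyrobp, Uhrf1 and Xrcc5 were lost. Those of Cpa3, Jun, Lyl1, Oas2 and Sulf2 were kept there but lost in another alternative.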

How the results depend on the processing

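With the mouse as a block, 3205 genes were called in the transgenic step, 981 in the wild-type step and 2435 for the difference, and without the replicate block the counts were 3511, 1096 and 2725. Leaving out each mouse in turn gave 1890 to 3962, 320 to 1796 and 959 to 3762 genes, with the lowest transgenic count without mouse 163. The share of transgenic calls that the wild-type step shared in direction, 9.98%, was 3.90 to 14.4% in these fits, 7.47% with all 17 libraries as group means and 12.6% without a filter on low counts, where the wild-type count was 1495. The 6 transgenic libraries alone gave 2819 calls, DESeq2 3300, limma voom 3314, RLE size factors 3203 and a fit without robust estimation 3148. The difference of Tgfb2 lay between -0.12, without wild-type mouse 1, and 11.25, without wild-type mouse 2. Of the 143 called steps among the genes given, 112 kept their call in all 14 alternatives and 31 lost it in at least 1. Of the 100 differences given, 54 kept their call and 46 lost it, and 6 uncalled steps were called in at least 1 alternative. The cause of these changes was not tested. Genes with few reads limit the precision: a gene without a read may stand at up to 0.121 CPM in DN2, and 38 of the 1710 genes that fell had no read in DN3a.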
